A study of Arabidopsis thaliana with 6 samples.

Results

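Binding of FRUITFULL (FUL) was mapped by ChIP-seq in pistils of Arabidopsis thaliana, and the deposited peak list for this tissue held 3494 peaks, of 7144 in the lists of the 2 tissues of the study. All 3494 peaks were used. The pistils were of flower stages 12 to 16, which take in the mature pistil before pollination and the first growth of the fruit. They came from plants of a Ler/Col F2 background with the genotype pFUL:FUL-GFP ful-1, grown on rock-wool without any treatment at 21 °C, in days of 16 h light and nights of 8 h. The GFP-tagged FUL protein was driven by the FUL promoter in plants carrying the ful-1 mutation, so binding was read only in cells where that promoter was active. Chromatin fixed for 15 to 30 min was precipitated with anti-GFP beads from 2 biological replicates, and 1 input library of the same genotype and stage served as control.

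FUL is a MADS-domain transcription factor, a family whose members bind DNA as dimers and larger complexes. In the fruit it acts in the valves, the walls of the pod, where it keeps the valve margin genes SHP1, SHP2 and IND from being expressed, and the valves of ful mutants fail to elongate. In the shoot it also promotes flowering. The peaks record where the tagged protein sat in the genome and not whether the gene nearby changed its expression, which was not measured here.

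The tissue label could not be checked against marker expression. Of 6 genes known from carpel, valve margin and ovule, SHP1, SHP2 and IND had a peak summit within 3 kb, and CRC, STK and SPT had none. Over all protein-coding genes, 21.3% had a summit inside or within this distance. Peaks were called on the replicates together, so every value below is a single value per peak with no replicate error, and no difference between peaks could be tested against biological variation. Intervals given with shares are Wilson 95% intervals, which cover counting error only.

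The fold of a peak is the authors' value for enrichment over control at the summit, the base with the strongest signal. The median fold was 4.10, with quartiles of 3.41 and 5.63, a lowest value of 1.80 and a highest of 15.3. In all, 1161 peaks (33.2%) had a fold of at least 5, 137 (3.92%) of at least 10 and 41 of at least 12. Most peaks thus sat in a narrow band of low fold, with a long tail of strong ones. The median −log10 p at the summit was 73.9, and it ran from 34.4 to 717. Fold and −log10 p ordered the peaks almost alike (Spearman rho 0.97 over 3494 peaks, both computed from the same libraries).

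Peaks were 904 bp wide at the median, with quartiles of 695 and 1266 bp and a range from 234 to 5362 bp. Together they covered 3712 kb, or 3.12% of the 5 chromosomes. A width of at least 1000 bp was reached by 1458 peaks (41.7%) and one of at least 2000 bp by 209 (5.98%). Wider peaks had somewhat higher folds: with the peaks cut by width into 4 equal groups, the median fold was 3.58 in the narrowest, then 4.21, 4.51 and 4.66. The correlation over all peaks was weak (Spearman rho 0.29 over 3494 peaks, which share libraries and caller).

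**Figure D1:**
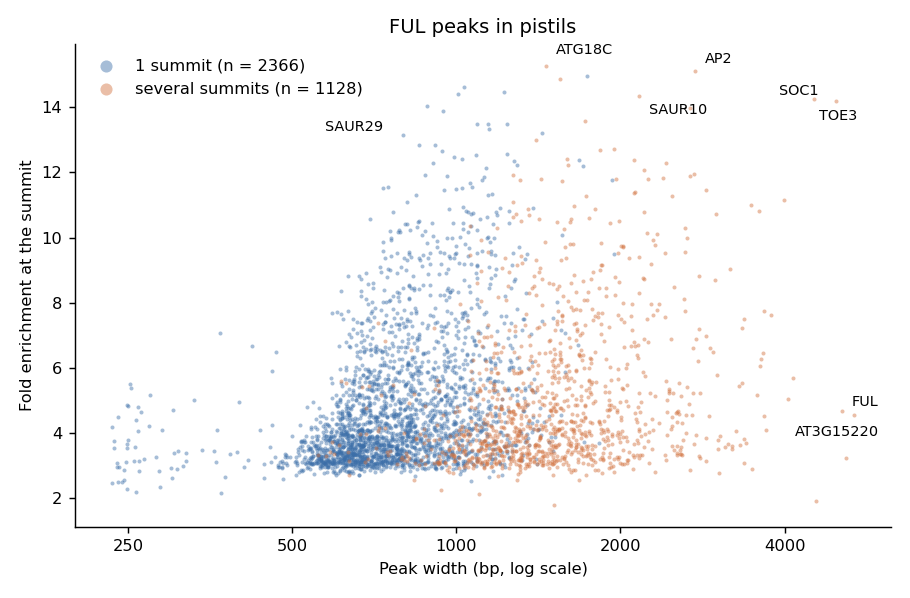
Fold enrichment at the summit (y axis) against peak width in bp (x axis, log scale) for the 3494 pistil peaks, with 1 point per peak. Peaks with 1 summit (blue) end at 1951 bp, while peaks with several summits (orange) reach 5362 bp and span the whole range of fold, and the peak nearest to FUL is wide at a fold of 4.68.

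Several summits had been found by the caller in 1128 peaks (32.3%, interval 30.8 to 33.9), and 2366 peaks had a single one. The list holds only 1 summit of each peak, and its letter gives its place among them: 470 peaks were listed by the first summit, 500 by the second and 158 by a later one. The peaks with several summits were about as strong as the others and much wider. Their median fold was 4.23 against 4.06, and their median width 1492 bp against 761.5 bp. The longest peak with 1 summit measured 1951 bp, so each of the 209 peaks of at least 2000 bp had several summits. In the same 4 groups by width, the share with several summits was 2.05% in the narrowest, then 4.37%, 32.0% and 90.8%. The number of summits followed width (Spearman rho 0.72) and barely followed fold (rho 0.06), both over 3494 peaks and with the number of summits known only as a minimum.

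The listed summit lay 69 bp from the centre of the peak at the median. In peaks with 1 summit this distance was 44 bp, and in peaks with several summits 259 bp. The listed summit lay in the outer part of the peak, the first or last 25% of its width, in 22.9% of the peaks with several summits and in 0.423% of the others. On a scale from 0 at the start to 1 at the end, the first summit sat at 0.30 at the median, the second at 0.65, the third at 0.71 and the fourth at 0.80. The letter gives the place of a summit in the peak, so this order follows from the naming.

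**Figure D2:**
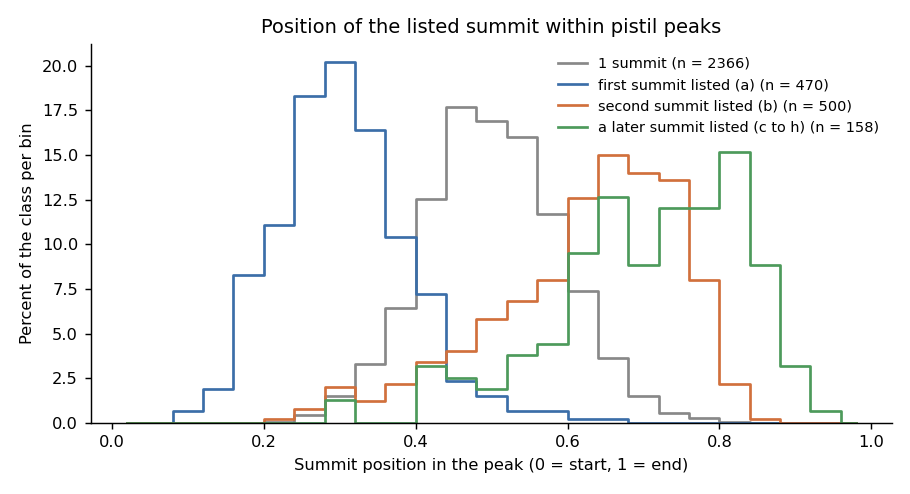
Position of the listed summit within the peak (x axis, 0 = start and 1 = end of the peak) as a percent of each class per bin (y axis), for peaks with 1 summit and for peaks listed by their first, second or a later summit. Single summits pile up at the middle, while first summits lie around 0.30 and second summits around 0.65.

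FUL summits lay mostly beside protein-coding genes, and inside them less often than the share of bases in genes. Of the summits, 1718 (49.2%, interval 47.5 to 50.8) lay outside protein-coding genes and within 1 kb of one, 909 (26.0%, interval 24.6 to 27.5) inside a gene, 684 (19.6%) at 1 to 3 kb and 183 (5.24%) farther away. The space within 1 kb of genes makes up 20.4% of the bases, so summits were 2.41 times as frequent there as its size alone gives. Genes themselves make up 54.1% of the bases, and the ratio there was 0.481.

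Outside genes the number of summits fell steeply with distance: from 331 in the first 100 bp to 149 between 401 and 500 bp, and to 19.7 per 100 bp between 2 and 3 kb. These counts were not divided by the bases present at each distance, which also differ. Space at 1 to 3 kb from genes makes up 11.1% of the bases. Summits were 1.76 times as frequent there as its size alone gives, against 2.41 times within 1 kb. The median distance of all summits outside genes was 599 bp. Summits inside genes lay close to the gene's ends: the median distance to the nearer end was 231 bp, and 567 of 909 (62.4%) lay within 500 bp of one. The gene table has no strand, so a start and an end of a gene cannot be told apart here. Genes holding a summit had a median length of 2754 bp, against 2078 bp for all 27444 protein-coding genes. A longer gene is more likely to hold any given position, so this difference alone says nothing about binding.

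Fold changed little with position. The median fold was 4.00 inside genes, 4.12 within 1 kb, 4.29 at 1 to 3 kb and 4.03 beyond. In the strongest 10% of the peaks, 24.9% of the summits (interval 20.6 to 29.6) lay at 1 to 3 kb, and in the weakest 10% it was 17.4% (interval 13.8 to 21.8). The 183 summits far from protein-coding genes were not all in empty space: the nearest other gene within 3 kb was a lncRNA gene for 42 and a pseudogene for 39, and 74 had no gene of any kind within 3 kb.

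**Figure D3:**
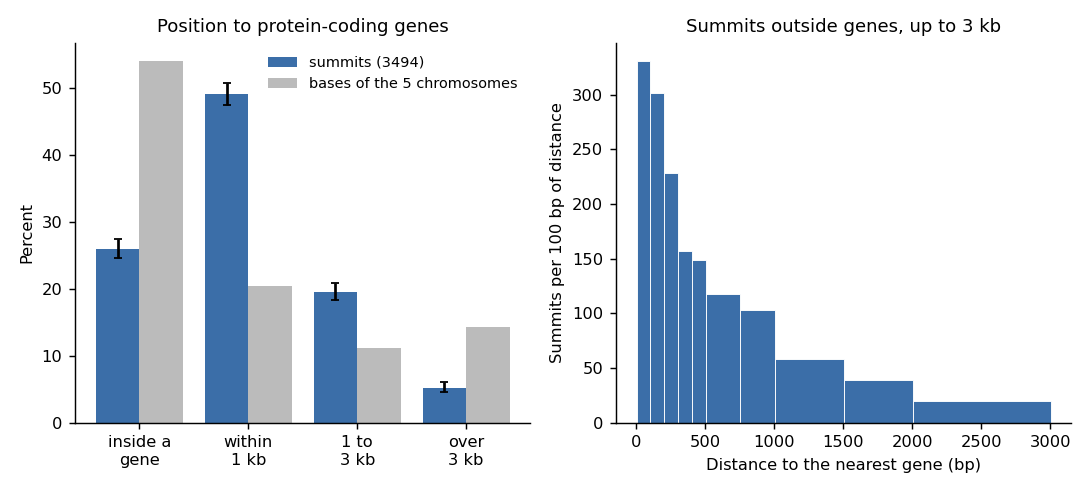
Left, percent of the 3494 pistil summits (blue, with Wilson 95% intervals for counting error) and of all bases (grey) in 4 classes of position to protein-coding genes. Right, summits outside genes per 100 bp of distance (y axis) against distance to the nearest gene in bp (x axis), falling from 331 in the first 100 bp to 19.7 at 2 to 3 kb. These counts are not divided by the bases present at each distance.

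The 5 chromosomes held 27.9 to 30.7 peaks per Mb, and no 1 Mb stretch was without one. Along the chromosomes the spread was uneven, with 1 to 67 peaks per 1 Mb stretch and a median of 30. Stretches with more genes held more peaks (Spearman rho 0.72 over 121 stretches). Neighbouring summits were 16378 bp apart at the median, yet 488 gaps (14.0%) were under 3 kb. Such gaps joined 891 peaks into 403 runs, 66 of them of at least 3 peaks. The longest runs held 5 peaks, and there were 4 of them. One run, at chr4:13014029-13024663 (TAIR10), spanned the neighbours CBF2, DREB1A and CBF1, which encode activators of cold-response genes, with folds from 3.18 to 11.9. The others lay at GRF3, a growth-regulating factor gene, and AT2G36410 (folds 3.13 to 4.84), at BRG1 (3.09 to 7.82), and at RLK, AT5G67290 and MYBR1 (3.14 to 5.36).

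Genes that held a summit, or had one at most 3 kb beyond an end, are called targets. By this rule 5859 of 27444 protein-coding genes, 21.3%, were targets. Most had 1 summit (4941 genes), 814 had 2, 96 had 3 and 8 had 4, so that 0.379% of all genes had at least 3. The gene itself held a summit at 892, or 3.25% of all genes. Summits lay on both sides of 417 genes, and both sides and the gene itself were bound at 21. One summit often counted for several genes: of the 3311 summits with a gene in reach, 1411 had 2 and 766 had 3. Genes with much gene-free sequence around them were targets more often, with 14.6% in the 25% of genes with the least and 27.0% in the 25% with the most.

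The strongest peak, fold 15.3, lay at chr2:17031398-17032859, with its summit 244 bp from ATG18C, which encodes a protein of the autophagy machinery. The second, fold 15.1, lay at chr4:17397006-17399748, 1611 bp from AP2, a floral organ identity gene that also acts in the fruit. AP2 had a second summit on its other side, 1570 bp away, with a fold of 10.4 in the peak at chr4:17404506-17405536, which was nearer to AT4G36925. The third peak of the list, fold 15.0 at chr4:17395185-17396918, was the next one along the chromosome from the first AP2 peak and was nearest to LEJ2, at 2353 bp. The AP2 and LEJ2 stretch thus held a pair of the 3 strongest peaks of the pistil.

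SAUR10, whose locus is AT2G18010 and which belongs to the small auxin up-regulated RNA genes, had the eighth highest fold, 14.3, in a peak at chr2:7830945-7833110 with its summit 1254 bp away. This peak also had the highest −log10 p of the list, 717. SOC1 (AGL20 in the gene table), a MADS-box gene that promotes flowering, followed with a fold of 14.3 at chr2:18810424-18814959. Its peak was 4536 bp wide and its listed summit 30 bp from the gene. TOE3, a relative of AP2, came next with a fold of 14.2 in a peak of 4980 bp at chr5:26804210-26809189, 1297 bp away.

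The other peaks among the 25 with the highest folds ran from 12.7 to 14.9. Among regulators, they included ATAUX2-11, an Aux/IAA auxin repressor gene that held the summit inside it (13.2), SAUR29 (13.2, 169 bp away), RAV1, which encodes a DNA-binding protein with AP2 and B3 domains (12.8, 156 bp), OZF2, a zinc finger gene (13.5, 1411 bp), and RL6, a RADIALIS-like MYB gene (12.7, 88 bp). The peak of RL6 was also 1434 bp from HB33, a zinc finger homeobox gene. Genes of other kinds were RLP32, a receptor-like protein gene (13.5), and LON2, a protease gene of the peroxisome (12.7). The remaining nearest genes had no symbol: AT1G11560 (14.9), AT5G21280 (14.5), AT5G44590 (14.4), AT4G02320 (14.0), AT1G75900 (14.0), AT2G28320 (13.9), AT5G18610 (13.5), AT5G58900 (13.3), AT1G12080 (13.0) and AT5G52660 (12.8). The peak at AT1G11560 was 1104 bp from XTH8, one of the genes for enzymes that cut and join xyloglucan in the cell wall.

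A pair of the 25 lay more than 3 kb from any protein-coding gene: one with a fold of 14.6 at chr2:15940874-15941905, 3200 bp from AT2G38090, and one with a fold of 13.6 at chr4:14373836-14375559, 3187 bp from ADS1. Of the others, 5 were inside a gene, 11 within 1 kb and 7 at 1 to 3 kb. Several summits were present in 11 of the 25. Their median width was 1401 bp, against 904 bp for all peaks.

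Width and number of summits picked out other loci. The widest peak, 5362 bp at chr3:5120997-5126358, had at least 8 summits and a fold of 4.56, and lay 1311 bp from AT3G15220 and 2717 bp from ERF4, an ethylene response factor gene. Peaks with at least 6 summits lay at SP1L3 (3559 bp wide, fold 5.17), NAC019, a NAC-domain gene of stress and hormone responses (3114 bp, 3.58), J11, a chaperone gene (3484 bp, 2.89), and AT2G07722 (4566 bp, 1.91). None of these 5 was among the strong peaks. The peak of second highest width, 5182 bp with a fold of 3.24 at chr3:13536583-13541764, was 7977 bp from the nearest protein-coding gene.

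Of the 8 genes with 4 summits, the 5 with the highest folds are given here. DREB1A, in the run of cold-response genes, had folds of 11.9, 6.49, 3.18 and 8.01. ZFP8, a zinc finger gene, had folds of 9.70, 7.83, 4.86 and 4.80. The gene bZIP44 had folds of 5.87, 4.06, 8.01 and 8.09, AT2G44940 had 4.71, 2.95, 6.30 and 3.14, and AT5G67290 had 4.63, 3.14, 5.36 and 4.31. At DREB1A the folds ranged more widely than at the other 4 genes.

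FUL itself was a target. The peak at chr5:24504008-24509103 was 5096 bp wide with at least 5 summits, its listed summit was 2438 bp from FUL (AGL8 in the gene table) with COB about as near, and its fold of 4.68 ranked 1334 in the list. The plants carried the FUL promoter and coding sequence as a transgene as well, and its part in the signal at this locus was not tested.

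Target genes were then counted in 36 lists of regulators, hormone pathways and gene families and in 5 control lists, against the 21.3% of all protein-coding genes. Some genes, such as AG and AP2, stood in more than 1 list, so the lists are not independent of each other. In 34 of the 36 the share of targets was above that of all genes. The exceptions were the circadian clock, with 1 target among 16 genes, and pod opening and lignin, with 5 among 31. Among the controls, 11.3% of 53 ribosomal protein genes, 14.3% of 14 seed storage genes and 21.1% of 38 photosystem genes were targets. Reference genes (3 of 12) and root genes (7 of 19) lay above all genes, at 1.17 and 1.73 times their share. The root control thus had a higher share than several of the 36 lists, among them the MYB, NAC and WRKY genes. A share above that of all genes was therefore not limited to the lists chosen for FUL. The lists also differed in their gene-free surroundings: at the median, 843 bp around the ribosomal protein genes, 1062 bp around the clock genes and 3548 bp around the genes of valve, margin and replum. Its part in the shares was not tested. A fold given for a list member is that of a summit within 3 kb, which may be nearer to another gene; where this holds for the highest summit of a member named below, the paragraph says so.

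**Figure D4:**
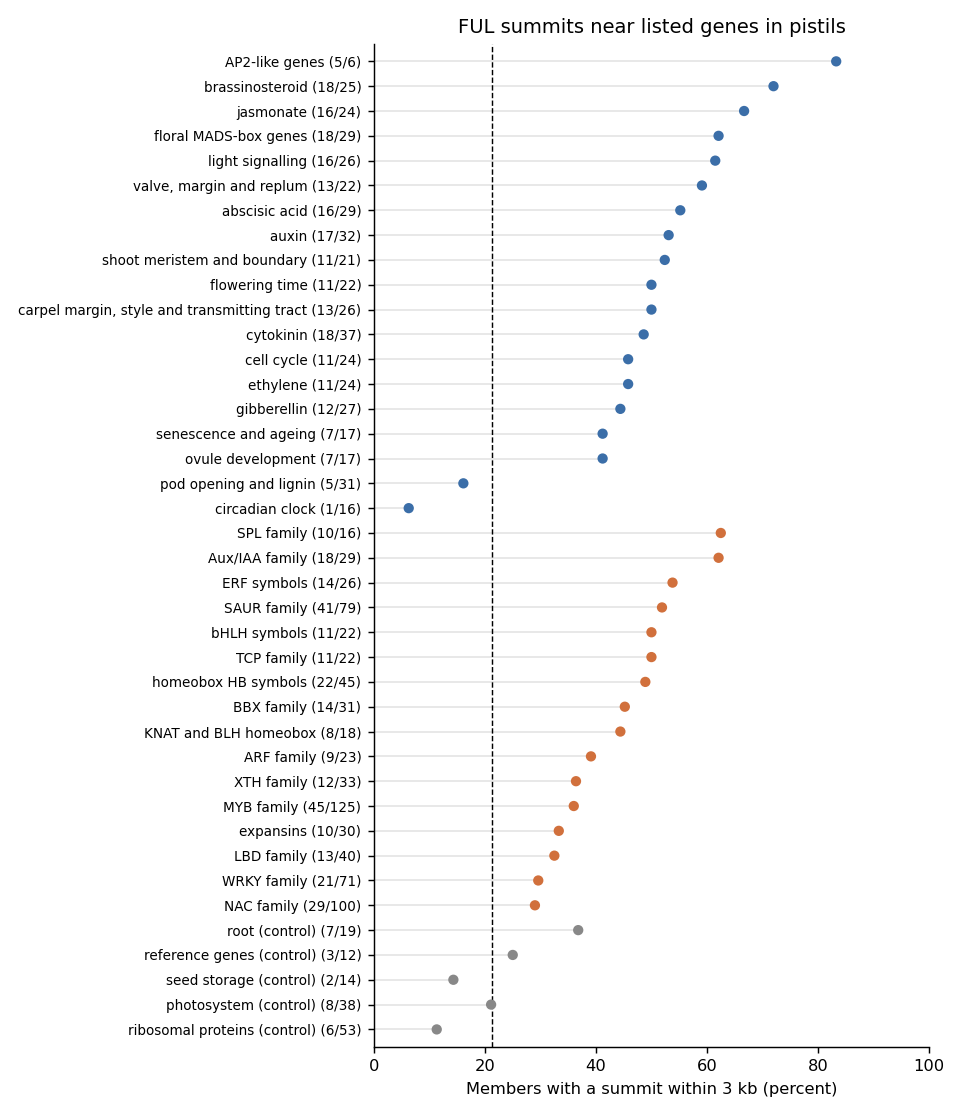
Percent of the members of 40 gene lists with a pistil summit inside or within 3 kb (x axis), for named lists (blue), families matched by symbol (orange) and controls (grey), with targets and members in brackets. The dashed line marks the 21.3% of all protein-coding genes, and only the circadian clock and pod opening lists fall below it outside the controls.

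Genes that pattern the valves, the valve margin and the replum between them were targets in 13 of 22 cases. Besides AP2, the highest folds were at SHP2 (12.2, 272 bp away, chr2:17818958-17820665), the organ growth gene JAG (9.54), ETT, an auxin response factor gene (9.54, 2352 bp), the abaxial identity gene FIL (7.82) and BLH9, the replum gene also named RPL (7.56, 2538 bp). JAG had 3 summits, left of, inside and right of the gene, with folds of 9.54, 3.26 and 4.57. The margin genes known to be repressed by FUL had unequal peaks: SHP2 at 12.2, its close relative SHP1 at 6.11 (809 bp away, chr3:21736701-21738760) and IND, which directs the margin to form, at 4.23 (1698 bp, chr4:44446-45796). AS1, KNAT6, ARF6 and KNAT1 had folds of 4.88, 4.68, 4.02 and 2.97. ALC, SPT, YAB3, AS2, KNAT2, HDG3, WOX13, NTT and ARF8 were not targets.

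Of the genes of carpel margin, style and transmitting tract, 13 of 26 were targets. Apart from TOE3, AG, which specifies stamens and carpels, had the highest fold, 11.7 at chr4:10380620-10382183, 1639 bp to the left of the gene, with further summits of 5.59 and 5.09 inside it. SUP, which limits stamen number, had a summit on each side (7.11 and 9.08). LUG, a co-repressor gene, had 7.56, BEE3, a brassinosteroid-responsive bHLH gene, 3 summits of up to 7.33, and the transmitting tract gene HEC1 6.66 and 4.06. CUC2 had 6.40. Among the ovule genes, 7 of 17 were targets: TT16, a MADS-box gene of the seed coat, with folds of 12.3 and 8.21, SEP3 with 11.1, UCN with 6.17, and PHB, KAN1 and BEL1 with 4.55, 4.45 and 4.42. The highest summits of BEE3, TT16, SEP3 and UCN were nearer to another gene.

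Of the pod opening list, 16.1% were targets, a share near that of all genes: it was 0.755 times theirs within 3 kb, 1.20 times when only the nearest gene counted and 1.11 times for peaks of fold at or above the median. ADPG2, a polygalacturonase gene of cell separation, held a summit with a fold of 10.2. C4H (7.18) and CAD5 (6.88), genes of lignin precursor synthesis, MYB58, an activator of lignin genes (6.75), and LAC4 (3.52, from a summit nearer to AT2G38070) were the other targets. The polygalacturonase genes ADPG1 and QRT2 and the wall thickening regulators NST1, NST2 and NST3 were not.

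Among 29 floral MADS-box genes, FUL's own family, 18 were targets, and 5 of the 29 had a fold of at least 10, which 0.991% of all genes had. The 5 were SOC1 (14.3), SHP2 (12.2), AGL18 (11.9, inside the gene), AG (11.7) and SEP3 (11.1, in a peak of 3995 bp whose summit lay 2709 bp from SEP3 and nearer to AT1G24265). AGL15, a repressor of ageing and flowering, followed at 9.76 and SVP, a repressor of flowering, at 9.05 and 4.81. AP3 had 6.75, SEP4 6.30, PI 6.07, FLC 5.30 and SEP1 4.65. The close relative AP1 had summits of 4.14 and 4.15. Among the members with none in reach were CAL, AGL24, STK, FLM and MAF2 to MAF5. Within the family, high peaks thus lay at some genes of flowering and some of floral organs, while other genes of both kinds had no summit. Only TOE2 of the AP2-like genes, a group of flowering repressors, was no target; the others were AP2, TOE3, SMZ (9.72 and 4.19), TOE1 (8.29, 7.42 and 3.54) and SNZ (6.28). Another gene was nearer to the highest summits of SVP, PI, FLC, SMZ and SNZ.

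Flowering time genes were targets in 11 of 22 cases, led by ATC (12.6) and BFT (9.73), relatives of TFL1 that act against flowering, and TEM1 (7.63), a repressor of FT. FD, the partner of FT, had 6.03 and 5.78. TEM2 had 3 summits of up to 5.56, TFL1 had 5.41 and FT 3.31, and CO and GI had none. In the list of shoot meristem and boundary, 11 of 21 were targets: HB51, a homeobox gene also known as LMI1, with 9.57, 4.81 and 3.22, ATH1 with 9.38, the boundary gene LOB with 6.10, LFY with 5.54 and CLV1, a receptor gene, with 5.22 and 3.24, beside RPL and CUC2. WUS, STM and CLV3 were not targets. The highest summits of FD, HB51 and CLV1 were nearer to another gene.

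Each hormone list held targets, but at the 21.3% of all genes a list of this size would be likely to hold some. The shares ran from 12 of 27 genes for gibberellin to 18 of 25 for brassinosteroid. There the receptor gene BRI1 had a fold of 10.3 (1580 bp to its left, chr4:18321351-18323978) and a weak summit of 3.02 on its right. The transcription factor genes BZR1 and BES1 had 9.19 and 6.41, their relative BEH3 9.04, the bHLH genes BEE3 and BEE1 7.33 and 5.87, and BIN2, the kinase that inhibits the pathway, 2.93. The biosynthesis genes DWF4, DET2, DWF1, BR6OX1 and BR6OX2 were not targets, while CPD (3.79) and ROT3 (3.42) were. Another gene was nearer to the highest summits of BZR1, BEH3, BEE3 and BEE1.

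Auxin genes were targets in 17 of 32 cases: DFL1 (12.4) and GH3.3 (9.36), whose enzymes conjugate auxin, the import carrier gene LAX2 (11.3), the response factor gene ARF19 (9.83), the kinase gene PID (8.31, 3.52 and 4.50) and the synthesis gene YUC1 (7.56, whose summit was nearer to LUG). The export carrier genes PIN3, PIN4 and PIN7 had highest folds of 6.40, 5.85 and 3.93. Of the Aux/IAA genes 18 of 29 were targets, led by ATAUX2-11 (13.2), IAA12 (10.004) and IAA19 (7.27 and 4.65). The highest summits of LAX2 and IAA12 were also nearer to another gene.

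The SAUR genes, many of which promote cell expansion, were targets in 41 of 79 cases, and 20 of the 79 had at least 2 summits in reach, against 3.34% of all genes. Many of these genes stand in tandem, so that 1 summit serves several. On chromosome 3, SAUR29 was nearest to the peak of fold 13.2 at chr3:977174-977972, which also had SAUR28 in reach, at 2333 bp. SAUR28, SAUR27, AT3G03847 and SAUR26 shared a peak of 8.76 at chr3:980345-981435, nearest to SAUR27. The same genes shared one of 5.08 at chr3:982536-983301, nearest to SAUR26. On chromosome 4, SAUR15 had summits of 5.65 and 10.8 and shared them with AT4G38840. SAUR10 had 1 strong peak, with no other SAUR gene within 3 kb of its summit. The same held for the summits of other SAUR genes, such as AT4G34760 (6.82) and AT1G16510 (5.52).

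Gibberellin genes were targets in 12 of 27 cases, led by GA2OX1 (12.0) and GA2OX8 (7.75), whose enzymes inactivate the hormone, GA20OX1 (10.6 and 3.71) and GA1 (6.36), which act in its synthesis, and the receptor gene GID1B (6.20 and 3.09). RGL2, a DELLA repressor gene, had 5.94. Cytokinin genes were targets in 18 of 37: the activation genes LOG8 (11.8 and 8.90) and LOG1 (9.49), the degradation genes CKX6 (9.15) and CKX7 (7.79), and the response regulator genes ARR4 (8.25) and ARR5 (5.33). Another gene was nearer to the highest summits of GA2OX1, RGL2, LOG8, CKX6 and ARR5. Peaks lay near genes that raise and at genes that lower each of the hormones.

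In the ethylene list 11 of 24 were targets, with ACS5 (11.4) and ACS2 (6.95), which act in synthesis, EIL1 (6.78, 5.70 and 3.17), a transcription factor gene, the receptor gene ERS2 (6.49), and ACS6 (5.62). In the abscisic acid list 16 of 29 were targets, with the transcription factor genes ABF4 (10.9), ABI5 (10.7, inside the gene), ABF1 (6.11), the receptor gene PYL4 (7.63), the synthesis gene NCED3 (6.48) and the phosphatase gene ABI1 (6.34). In the jasmonate list 16 of 24 were targets and 15 of them had a summit within 1 kb, a window that held one for 11.9% of all genes. JAZ10, a repressor gene, had 9.75 at 26 bp, MYB21, a stamen and petal growth regulator, 9.50, 6.53 and 3.87, the receptor gene COI1 5.73, JAZ2 5.41, MYC3 4.85 and AOS 4.84. No jasmonate gene reached a fold of 10. The highest summits of ACS5, ABI1, COI1 and JAZ2 were nearer to another gene.

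**Figure D5:**
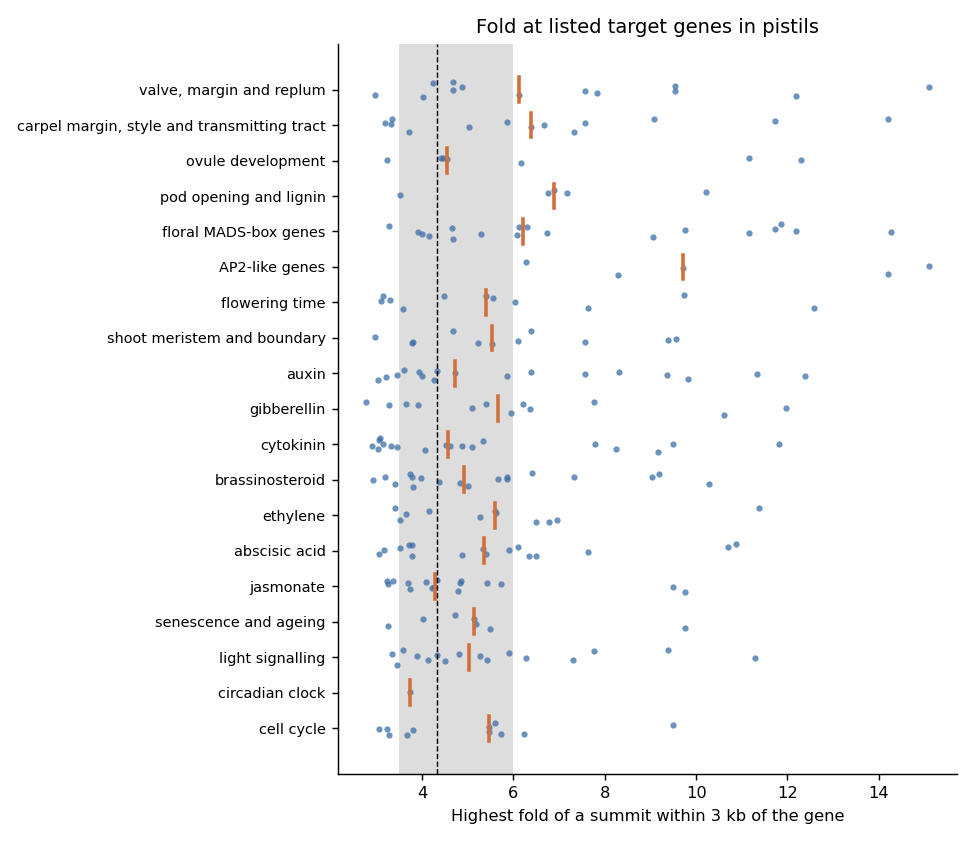
Highest fold of a summit within 3 kb (x axis) for each target gene of the 19 named lists that are not controls, with 1 point per gene and an orange bar at the median of each list. The dashed line and grey band mark the median, 4.32, and the quartiles of all 5859 target genes; the AP2-like genes have the highest median, 9.72, and jasmonate genes one of 4.29.

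Light signalling genes were targets in 16 of 26 cases: BBX20 (11.3), PIF4, a bHLH growth promoter (9.37, inside the gene), the repressor genes SPA4 (7.76) and SPA1 (7.31), the photoreceptor gene PHYA (6.28) and BBX21 (5.91). PHYB, HY5 and COP1 were not. In the circadian clock list the only target was PRR5 (3.74), and CCA1, LHY, TOC1, ELF3, ELF4 and LUX were not. Cell cycle genes were targets in 11 of 24 cases, among them the inhibitor genes KRP7 (9.50 and 3.90), KRP6 (6.23 and 3.59) and SIM (5.72) and the D-type cyclin genes CYCD3;3 (5.59), CYCD3;1 (5.46) and CYCD4;1 (5.46 and 3.22). CDKA;1, RBR1 and E2FA had no summit in reach. Of the senescence genes 7 of 17 were targets, with PPH, of chlorophyll breakdown, at 9.76 from a summit nearer to AGL15, SAG13 at 5.50, WRKY22 at 5.18, SAG29 at 5.13, RPK1 at 4.71 and SAG101 at 4.02. Another gene was nearer to the highest summits of PHYA, BBX21, KRP7, WRKY22 and SAG101.

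Transcription factor families differed in their shares. The SPL family, flowering regulators, had 10 targets among 16 genes, led by SPL2 (10.7), SPL11 (7.86), SPL5 (6.99), SPL1 (5.65), SPL9 (5.59) and SPL8 (4.36). The TCP family, regulators of cell division, had 11 among 22, led by BRC1 (10.1), TCP20 (8.31), TCP4 (7.49) and TCP9 (6.40). Lower shares were found for genes named MYB (36.0% of 125), WRKY (29.6% of 71) and NAC (29.0% of 100). In the MYB family no gene reached a fold of 10, and MYB43 and MYB21 led with 9.50 each. In the NAC family NAC014 (10.8) and NAC3 (10.8) led, and in the WRKY family WRKY21 (7.47). The highest summits of SPL5, SPL1, SPL9, SPL8 and WRKY21 were nearer to another gene.

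Other families lay between these. Genes with HB symbols were targets in 22 of 45 cases, led by HB33 (12.7), HB23 (10.5) and HB51, and genes of the KNAT and BLH group in 8 of 18, led by BLH2 (7.95) and RPL. ERF symbols gave 14 of 26 (ERF15 6.72, ERF2 6.43), bHLH symbols 11 of 22 (AT1G72210 12.2, BHLH32 9.43), the BBX family 14 of 31 (BBX20 11.3, BBX17 7.37), the ARF family 9 of 23 (ARF19 9.83, ETT 9.54) and the LBD family 13 of 40 (ASL5 11.1, LBD10 10.3). Among cell wall genes, 10 of 30 expansin genes (EXPB4 8.66, EXPA9 4.83) and 12 of 33 XTH genes (XTH8 14.9, EXGT-A3 9.73, XTH10 7.76) were targets. Another gene was nearer to the highest summits of HB33, HB51, BHLH32, LBD10, EXPB4, XTH8 and XTH10.

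Genes of 14 regulator families as a whole were nearest to weak and strong peaks at similar rates. They make up 2.42% of protein-coding genes and 5.88% of the 2957 genes nearest to a summit (174 genes, interval 5.09 to 6.79). With the peaks cut by fold into 10 equal groups, the share of summits whose nearest gene was in these families ran from 5.49% to 7.25%. It was 5.54% in the weakest group and 6.65% in the strongest. From the weakest to the strongest group the median width grew from 738.5 to 1143 bp and the share of peaks with several summits from 27.4% to 39.1%.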

How the data were processed

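ChIP-seq peaks of the FUL-GFP fusion in pistils (2 ChIP replicates, 1 input, grouped by the labels' tissue and antibody) were used as the authors deposited them, in narrowPeak layout. Per the submitters' processing notes, with no role given, the tools were MACS2 2.1.0, Bowtie 1.1.2, deepTools and Picard 2.60, and the build was TAIR10. In the deposited list the fold is a linear ratio at the summit, the p-value and q-value stand as −log10, and the score equals 10 times −log10 p cut to a whole number in all 3494 rows. Peak names hold the word pooled. Peak numbers run to 14602, so the list is a selection of 23.9% of them, by an unknown rule (not given in the sources used here). Genes lacking a peak are therefore not shown to be unbound. Read depth is unknown. No replicate value, error or test across samples could be had. Sequencing reads were not analysed here.

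Widths, summits, distances and shares were computed with Python 3.11.15, numpy 2.4.6, pandas 2.3.3 and scipy 1.17.1, and the assignment of summits to genes was tested on simulated data. Genes were the 27444 protein-coding genes of RefSeq's TAIR10.1 table, which has no strand and no exons. Its register with the peaks was checked: 26.0% of summits lay inside genes in place, and 56.3% to 63.1% at 34 shifts of 2 to 10 kb in steps of 500 bp. Shifts below 2 kb were not tried, so a smaller offset was not tested. Targets had a summit inside or within 3 kb. The planned motif search in promoters was not run.

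Named were the 25 peaks of highest fold, 5 each of the widest peaks, the peaks with most summits, the genes with most summits and the peaks of lowest fold, FUL, SAUR10, and up to 6 members per list by fold, with non-targets where 6 or fewer; other members in the text were chosen after their values were seen. The members and lists were chosen with earlier results of these data known, and the 41 lists were corrected for wrong matches of names, in the SAUR list (AT5G01830 removed) after its targets had been seen. Of 506 names, 6 did not match, among them RVE6 of the clock list. Families were taken by symbol and may miss members. One family list is counted among the 36 and, like some single genes, is not reported here.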

Additional observations from a re-analysis of the deposited data

How the results depend on the processing

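The number of target genes followed the rule closely: 5859 within 3 kb became 3256 within 1 kb, 2957 when only the nearest gene counted, and 3195 when only peaks with a fold at or above the median were used. With peaks of −log10 q at or above the lower quartile it was 4628, with peak centres 5862 and with genes of every type 7359. Summits inside genes, 26.0% in the report, made up 24.3% for peaks of fold at or above the median and 30.4% with genes of every type, which also put 50.9% within 1 kb. Without the 25% of peaks lowest in −log10 q the median fold was 4.71 and the median width 952 bp. The share of peaks with several summits was 34.5% at a fold at or above the median, and 0 when defined by rows with the same start and end, since each peak is listed once. For that reason 1 summit per peak number changed no value. Of the 36 lists, 34 lay above all genes with the main rule, 34 at 1 kb, 35 with the nearest gene and 35 at the higher folds. Against the share of all genes, 7 of the 41 lists moved by more than 1.5 times at 1 kb, 22 with the nearest gene and 9 at the higher folds. No paired analysis was possible because the peaks were called on the replicates together, and no replicate could be left out for the same reason. The peaks that the deposited selection left out limit every count of genes without a summit.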

Other observations

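MicroRNA genes were also near FUL summits in pistils. Of 326 miRNA genes, 67 (20.6%, Wilson 95% interval 16.5 to 25.3, counting error only) had a summit within 3 kb, a share near the 21.3% of protein-coding genes. The strongest peak of the list, fold 15.3 near ATG18C, was 2269 bp from MIR319c, whose product acts on TCP genes. Members of the miR156 and miR157 group, which act on SPL genes, were MIR157c (9.79, 1753 bp), MIR156a (8.47, 2499 bp), MIR156e (7.60, 1461 bp), MIR156f (6.85) and MIR156d (6.25), with lower folds at MIR156c (4.91), MIR157d (4.76), MIR156i (4.13), MIR156j (3.43) and MIR156b (3.32). MIR172b, of the group that acts on AP2-like genes, had summits of 5.65 at 604 bp and 3.38 at 1689 bp, and MIR172a had one of 3.13. MIR394a had 8.18, MIR168a 5.77, MIR159b 5.46, MIR167a 5.26 and MIR164b 3.13. A protein-coding gene was nearer than the miRNA gene to the summits of MIR319c, MIR157c, MIR156a, MIR156f, MIR156d, MIR156i, MIR156j and MIR172a. This also held for the weaker summit of MIR172b. The summit counted for MIR156i was 321 bp from SPL4, and that for MIR156j lay inside SPL9. The miRNA genes named here were chosen after their values were seen.

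Some peaks had a −log10 p far above that of peaks of like fold, a comparison added after seeing the data, with the 25 peaks next above and below in fold. It was over 1.5 times their median in 53 peaks and over 2 times in 13. The peak nearest to FUL was among the latter, with 240 against 89.1, and the next peak along, at COB, had 191 against 107. The greatest ratio, 4.98, was that of the wide peak at chr3:13536583-13541764, and 4.85 was reached at chr2:2937916-2939062. AT2G07565 (225 against 62.6), AT2G07732 (161 against 38.7), AT2G07739 (145 against 38.5) and AT2G07633 (95.03 against 38.8) lay between 3187675 and 3496794 on chromosome 2. The 3 lowest folds of the list, 1.80, 1.91 and 2.12, lay in the same stretch, at AT2G07623, AT2G07722 and AT2G07633, and the next, 2.16 and 2.21, on chromosome 3 at chr3:13587166-13587535 and chr3:13536222-13536480. What sets these loci apart was not tested.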
